A study of Homo sapiens with 8 samples.

Results

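Ribosome footprints were followed on 10 mRNAs known for translation that is favoured when the initiation factor eIF2 is phosphorylated. The 10 were listed by Ensembl gene ID (ATF4, ENSG00000128272, ATF5, ENSG00000169136, DDIT3, ENSG00000175197, CEBPB, ENSG00000172216, PPP1R15A, ENSG00000087074, PPP1R15B, ENSG00000158615, IFRD1, ENSG00000006652, IBTK, ENSG00000005700, SLC35A4, ENSG00000176087, and UCP2, ENSG00000175567), not by their values. The list was set with earlier results of these data known. All 10 were found among the 19580 transcripts of the deposited table, which holds 1 transcript per gene. Of them, 9 were among the 11920 transcripts with a mean level of at least 1 RPKM that entered the tests. RPKM is reads divided by transcript length and by library size. The cells were HAP1, an adherent human line with a nearly haploid genome that derives from a chronic myeloid leukaemia line. There were 4 groups of 2 biological replicates: wild-type cells and RNF14-knockout cells, each harvested at 0 or 30 min. Cells of all 4 groups had been given 5 uM 4-thiouridine (4SU), a photoreactive uridine analogue that enters new RNA, for 18 h and then 6 kJ/m2 of UVA, which crosslinks such RNA to bound protein. The time is that of recovery after irradiation, and cells without 4SU or UVA were not analysed here. RNF14 is a ubiquitin ligase that acts at stalled ribosomes, and whether the knockout is 1 clone is not given in the sources used here.

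Phosphorylation of eIF2 by its stress-activated kinases lowers the supply of initiator tRNA at the ribosome and reduces initiation on most mRNAs. Some mRNAs carry short upstream open reading frames that keep ribosomes from the main coding sequence in unstressed cells. When initiator tRNA is scarce, scanning ribosomes pass the inhibitory upstream frame, and the main frame gains footprints. ATF4 is the best known case: a first upstream frame permits reinitiation, and a later one, which overlaps the coding start, is skipped under stress. The programme also includes its own brake, since PPP1R15A and PPP1R15B direct the phosphatase PP1 to eIF2.

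Each mRNA has 1 value per library, with no split between upstream and main reading frames. The part of the transcript that was counted is not given in the sources used here, and RNA abundance was not analysed here, so a change in RNA level and a change in translation cannot be told apart. The 4 libraries at 0 min held 778683 to 1241975 reads and the 4 at 30 min held 323946 to 717828, so every library at 30 min was shallower than every library at 0 min. Depth thus moved with recovery time in all comparisons of time, and values from libraries thinned to equal depth are given beside the changes that passed. At 30 min depth also separated the genotypes, with 717828 and 516410 reads in wild type against 323946 and 459227 in the knockout. Comparisons of genotype at 30 min, and of recovery between genotypes, share this limit. Tests used limma on log2(RPKM + 1) over all 11920 transcripts; a change passed where its p, adjusted by the Benjamini-Hochberg method, was under 0.05, and differences given as log2 are on that scale. Intervals on ratios of reads cover counting error only. RNF14 itself and markers of the line's origin were not analysed here, because IDs other than those listed could not be paired with gene names.

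ATF4 stood far above the other 9 mRNAs in footprint level per length. In wild-type cells it averaged 535 RPKM ± 43.8 at 0 min against 255 ± 17.5 after 30 min, and in knockout cells 561 ± 36.3 against 239 ± 8.25 (SD, n = 2 each). Among all 19580 transcripts this placed it between 124th and 152nd from the highest in the libraries at 0 min and between 302nd and 344th in those at 30 min. UCP2 was next by its mean over all 8 libraries, at 35.5 RPKM, followed by DDIT3 at 34.9, CEBPB at 29.7, IFRD1 at 24.8, PPP1R15B at 24.5, ATF5 at 13.6, IBTK at 12.4 and PPP1R15A at 9.05. This order depends on division by transcript length, and the part of each transcript that was counted is not given. By reads over all 8 libraries PPP1R15B (5259 nt) had 763 and UCP2 (1675 nt) had 363. From UCP2 to PPP1R15A each mRNA overlapped the next in the order by mean RPKM in its range over libraries. ATF4 was above UCP2, and PPP1R15A above SLC35A4, with no overlap. The order among the lower members changed with the group: DDIT3 was in place 6 in the knockout at 0 min and in place 2 in the knockout at 30 min, where its replicates did not overlap those of CEBPB, the next in order.

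SLC35A4, whose upstream frame encodes a microprotein of its own, had 2 reads in all 8 libraries together. It was listed at 0.499 RPKM in replicate 1 of wild type at 30 min and at 0.781 RPKM in replicate 2 of the knockout at 30 min, 1 read in each, and at 0 in the other 6 libraries. A count of 0 allows up to 3 reads, which on this transcript of 2789 nt would be 0.866 RPKM in the deepest library and 3.32 RPKM in the shallowest. SLC35A4 was below the filter and was not tested, and no difference between groups was detectable for it at this depth.

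**Figure D1:**
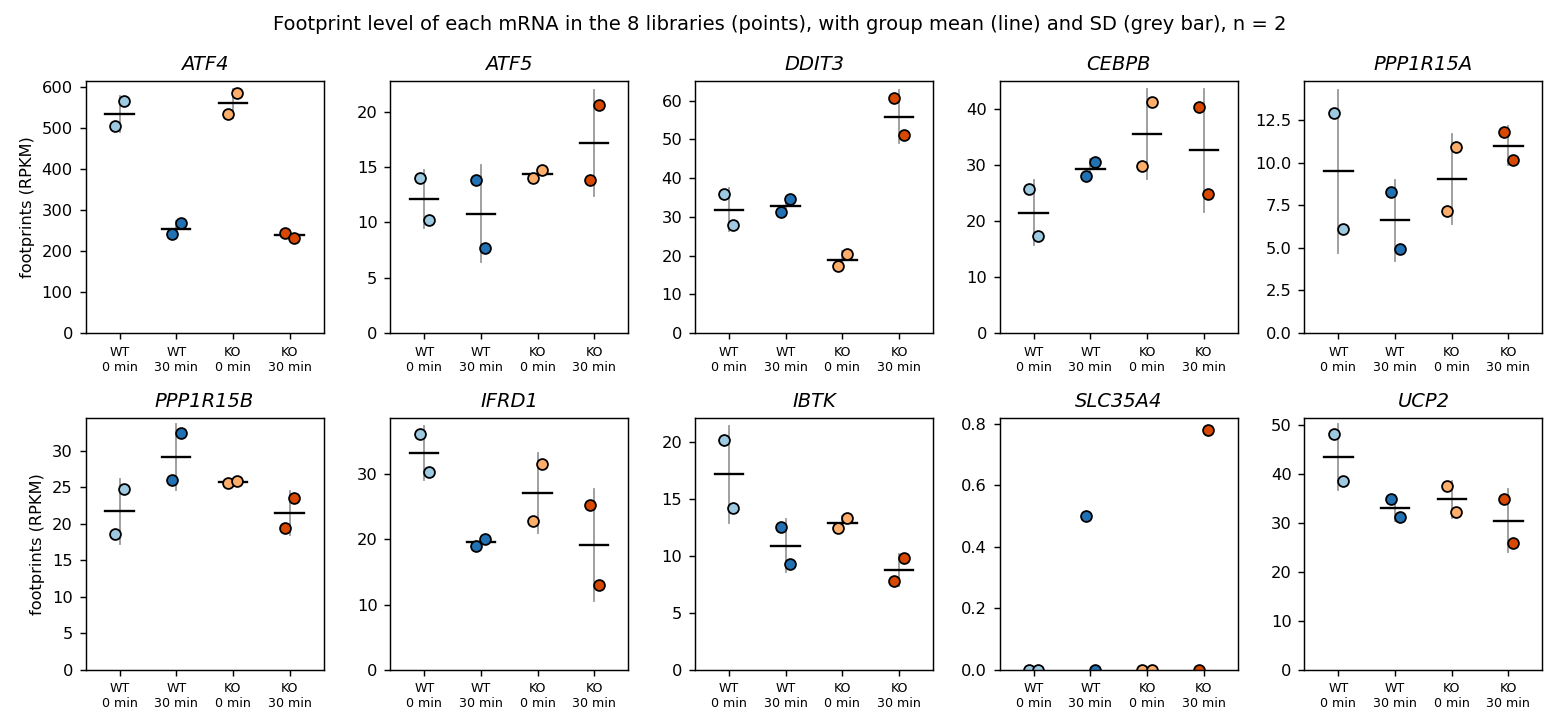
Footprint level in RPKM (vertical axes, each with its own range from 0) of the 10 mRNAs in the 4 groups, with 1 point per library, the mean as a black line and the SD as a grey bar (n = 2, not drawn for SLC35A4). In both genotypes ATF4 was lower after 30 min of recovery, DDIT3 was highest in the knockout at 30 min, and SLC35A4 had 1 read in each of 2 libraries and none in the other 6.

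All 10 genes are protein coding in the RefSeq annotation of GRCh38.p14. ATF4 lies on chromosome 22 at 39520559 to 39522686, DDIT3 on chromosome 12 at 57516588 to 57520517, PPP1R15A on chromosome 19 at 48872421 to 48876058, PPP1R15B on chromosome 1 at 204395826 to 204411817 and IFRD1 on chromosome 7 at 112423174 to 112477203. ATF4, ATF5, DDIT3 and CEBPB encode bZIP transcription factors, which bind DNA as dimers, so the RefSeq promoter windows, 250 bases before to 50 after each annotated start, were searched on both strands for 4 short motifs chosen with the footprint results known. The palindromic cAMP response element TGACGTCA was in 1.85% of the 35116 windows, in any window of 2.25% of the 27305 genes, and in a window of 2 of the 10 members, IFRD1 and PPP1R15A. The C/EBP-ATF composite element TGATGNAA was in 3.62% of windows, 4.46% of genes and 2 members, IFRD1 and PPP1R15B. The AP-1 element TGACTCA was in 4.95% of windows, 6.05% of genes and 4 members, ATF5, DDIT3, IBTK and IFRD1. The TATA box TATAAA was in 11.5% of windows, 13.99% of genes and 3 members, ATF4, CEBPB and PPP1R15A. The 10 members have 19 windows in all. The lines below show, 5′ to 3′ on the gene's strand, 30 bases around 1 match in each of ATF4 and DDIT3, whose footprints changed, and around 1 bZIP-type match in each of PPP1R15A, PPP1R15B and IFRD1, with the motif in capitals. IFRD1 also has a C/EBP-ATF and an AP-1 match, which are not printed.
ATF4, TATA box, chr22:39520520-39520549, plus strand: agagacgaagtcTATAAAgggccggcgggc
DDIT3, AP-1, chr12:57520737-57520766, minus strand: gcgcgcgcgcaTGACTCAcccacctcctcc
PPP1R15A, cAMP response element, chr19:48872352-48872381, plus strand: gcctctcttcgTGACGTCAgcacgccgggc
PPP1R15B, C/EBP-ATF element, chr1:204412026-204412055, minus strand: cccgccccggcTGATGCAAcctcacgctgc
IFRD1, cAMP response element, chr7:112450397-112450426, plus strand: cgcccacagagTGACGTCAggtggcggtat
The ATF4 motif begins 27 bases before an annotated start, that of PPP1R15A 58 bases before and that of PPP1R15B 227 bases before. The printed DDIT3 motif begins 238 bases before 1 annotated start of that gene and 241 bases before another. That of IFRD1 begins 100 bases before 1 of the annotated starts of that gene. These matches describe the letters in the windows and are not measured binding sites.

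The footprints on the 10 mRNAs together made up a smaller share of all reads after recovery, and ATF4 carried nearly all of the difference. In wild-type cells the share was 0.151% ± 0.00445 before recovery (0 min) and 0.0926% ± 0.00383 after it. Knockout cells had 0.156% ± 0.0106 before and 0.0894% ± 0.00414 after (SD, n = 2 each). All 4 libraries at 30 min lay below all 4 at 0 min. The other 9 mRNAs took 0.0429% ± 0.00439 before and 0.0410% ± 0.000303 after recovery in wild-type cells, and 0.0425% ± 0.00328 before and 0.0412% ± 0.00247 after it in knockout cells, with overlapping ranges. Of the reads on the 10 mRNAs, ATF4 held 71.5% ± 3.75 before and 55.6% ± 1.51 after recovery in wild-type cells, and 72.7% ± 0.250 before and 54.0% ± 0.634 after it in knockout cells. These shares are a description and carry no test.

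**Figure D2:**
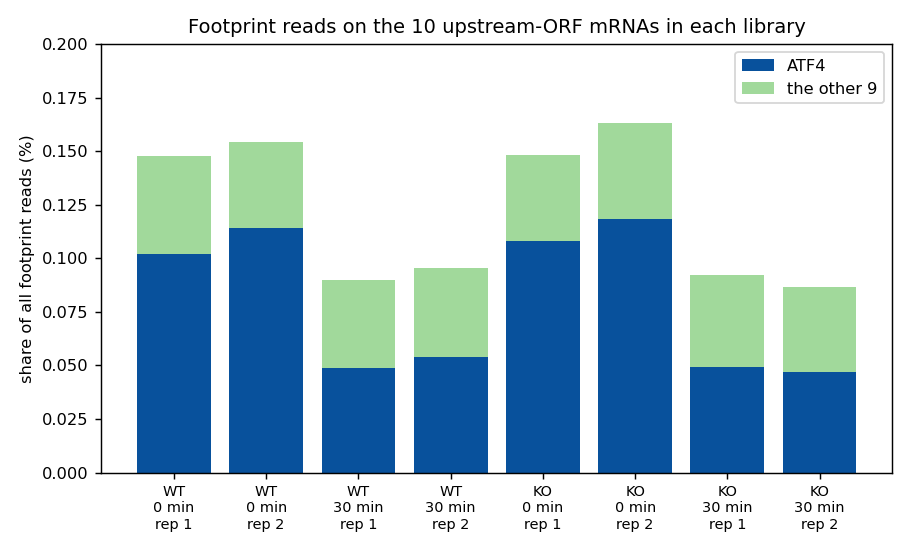
Share of all footprint reads, in percent, on the 10 mRNAs in each of the 8 libraries, as stacked bars of ATF4 (dark) and the other 9 (light). The totals lay between 0.148% and 0.163% at 0 min and between 0.0864% and 0.0953% at 30 min, and the light part differed little between times.

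ATF4 is the transcription factor that drives amino acid synthesis, redox and stress genes when eIF2 is phosphorylated. Wild-type replicates stood at 504 and 566 RPKM before recovery (907 and 1111 reads) and at 243 and 268 RPKM after it (352 and 279 reads). Knockout replicates stood at 535 and 586 RPKM before (1342 and 922 reads) and at 245 and 233 RPKM after (160 and 216 reads). Every library at 30 min lay below every library at 0 min, and the replicates of each group were close to each other.

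ATF4 fell at 30 min in both genotypes. The change in log2(RPKM + 1) was -1.06 in wild-type cells (SE 0.14, limma adjusted p = 0.00352) and -1.23 in knockout cells (SE 0.14, limma adjusted p = 0.00230). The share of reads on ATF4 was 2.12-fold lower in wild type (95% interval of the counts 1.94 to 2.32) and 2.33-fold lower in the knockout (2.09 to 2.61). Averaged over genotypes it was -1.15 (SE 0.10, limma adjusted p = 0.000138), which ranked 190th from the lowest of 11920. The 908 transcripts with a mean of at least 100 RPKM had a median averaged change of -0.11, and ATF4 was 17th from the lowest of these. In wild type the adjusted p was 0.0529 without wild type at 30 min replicate 1, 0.0558 after centring each library on its median and 0.119 with no trend in the prior, in a range from 1.34e-06 to 0.119 over 20 alternatives. In the knockout it was 0.0788 without the knockout at 0 min replicate 2 and 0.121 with no trend, in a range from 4.94e-07 to 0.121, whereas the averaged change of ATF4 passed in 19 of 19 alternatives, among them libraries thinned to equal depth (-1.20, limma adjusted p = 0.00101). In thinned libraries ATF4 also fell within wild type (-1.16, limma adjusted p = 0.0145) and within the knockout (-1.25, limma adjusted p = 0.0138).

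DDIT3, also called CHOP, is a bZIP factor that ATF4 induces and that promotes cell death in prolonged stress. Wild-type replicates stood at 35.8 and 27.97 RPKM before recovery (34 and 29 reads) and at 31.3 and 34.5 RPKM after it (24 and 19 reads), and the times overlapped. Knockout replicates stood at 17.4 and 20.5 RPKM before (23 and 17 reads) and at 60.8 and 51.0 RPKM after (21 and 25 reads), with no overlap. The knockout thus had the lowest DDIT3 values of all libraries at 0 min and the highest at 30 min.

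DDIT3 rose at 30 min in the knockout by 1.51 on the log2 scale (SE 0.23, limma adjusted p = 0.0118), which ranked 140th from the highest of 11920. The share of reads on DDIT3 was 2.97-fold higher at 30 min there (95% interval of the counts 1.90 to 4.65). For wild-type cells the corresponding change was 0.05 (SE 0.23, limma adjusted p = 0.923) and the ratio of read shares was 1.03 (0.682 to 1.54). The difference between these changes was 1.46 (95% interval 0.72 to 2.20), but it did not pass (limma adjusted p = 0.238). In libraries thinned to equal depth, which leaves fewer reads, the log2 change of DDIT3 in the knockout was 1.57. Before thinning the change in the knockout rested on 40 reads at 0 min and 46 at 30 min. Its adjusted p was 0.139 without the knockout at 0 min replicate 1, 0.110 without replicate 2, 0.112 with no trend in the prior and 0.209 in libraries thinned to equal depth, in a range from 0.00773 to 0.209 over 20 alternatives, with log2 changes from 1.35 to 1.65. Averaged over genotypes the change of DDIT3 was 0.78 (SE 0.17, limma adjusted p = 0.0212), which passed in 12 of 19 alternatives. Without single libraries the averaged DDIT3 change had an adjusted p of 0.0706 (wild type at 0 min replicate 2), 0.0607 and 0.0820 (wild type at 30 min replicates 1 and 2), and 0.0995 and 0.0706 (knockout at 0 min replicates 1 and 2). It was 0.218 in libraries thinned to equal depth, where the change was 0.87, and 0.0838 with no trend in the prior. Over 19 alternatives the adjusted p ranged from 0.00770 to 0.218 and the log2 change from 0.59 to 0.97.

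The other bZIP factors did not pass the test in any of the 6 comparisons. ATF5, a relative of ATF4 whose mRNA has a like arrangement of upstream frames, had 14.0 and 10.3 RPKM before and 13.9 and 7.72 after recovery in wild-type cells, and 14.0 and 14.7 before and 13.8 and 20.6 after it in knockout cells. Its times overlapped in both genotypes, and its averaged log2 change was 0.02 (95% interval -0.52 to 0.55). CEBPB, a C/EBP factor whose upstream frame sets which protein isoform is made, had 25.6 and 17.3 RPKM before and 28.03 and 30.5 after recovery in wild-type cells. For knockout cells the CEBPB values were 29.8 and 41.2 RPKM before and 40.3 and 24.9 after. The wild-type libraries at 30 min were above those at 0 min while those of the knockout overlapped, with log2 changes of 0.45 (95% interval -0.22 to 1.13) and -0.14 (95% interval -0.82 to 0.53).

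The phosphatase subunits did not pass either. PPP1R15A, also called GADD34, is the stress-induced subunit that returns eIF2 to its active form. It had 12.9 and 6.13 RPKM before and 8.30 and 4.94 after recovery in wild-type cells, and 7.20 and 10.9 before and 11.8 and 10.2 after it in knockout cells, from 6 to 27 reads a library. Both times overlapped in each genotype, and the log2 changes were -0.42 (95% interval -1.32 to 0.47) in wild type and 0.28 (95% interval -0.62 to 1.17) in the knockout. PPP1R15B, the constitutive subunit, had 18.6 and 24.9 RPKM before and 26.0 and 32.4 after recovery in wild-type cells, against 25.6 and 25.9 before and 19.4 and 23.6 after it in knockout cells. Its libraries at 30 min were the higher ones in wild type and the lower ones in the knockout, with no overlap in either. The log2 changes of PPP1R15B were 0.42 (limma adjusted p = 0.380) and -0.26 (limma adjusted p = 0.646), and their difference was -0.67 (95% interval -1.47 to 0.13, limma adjusted p = 0.443).

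The other 3 tested members had lower mean values at 30 min in both genotypes, but none of these differences passed. IFRD1, a transcriptional coregulator whose mRNA is also under nonsense-mediated decay through its upstream frame, had 36.1 and 30.3 RPKM before and 19.0 and 20.1 after recovery in wild-type cells, and 22.8 and 31.5 before and 25.2 and 13.1 after it in knockout cells. Its times did not overlap in wild type and did in the knockout. IBTK, an inhibitor of Bruton's tyrosine kinase that also serves as a substrate adaptor of a ubiquitin ligase, had 20.2 and 14.2 RPKM before and 12.5 and 9.25 after recovery in wild-type cells, and 12.4 and 13.3 before and 7.80 and 9.79 after it in knockout cells, with no overlap of times in either genotype. UCP2, a mitochondrial carrier protein, had 48.3 and 38.7 RPKM before and 34.9 and 31.2 after recovery in wild-type cells, without overlap, and 37.5 and 32.2 before and 35.0 and 26.0 after it in knockout cells, with overlap.

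Averaged over genotypes the log2 change was -0.63 for IFRD1 (95% interval -1.13 to -0.13, limma adjusted p = 0.119), -0.56 for IBTK (95% interval -1.04 to -0.08, limma adjusted p = 0.143) and -0.29 for UCP2 (95% interval -0.67 to 0.09, limma adjusted p = 0.335). IFRD1 passed without the knockout at 30 min replicate 1 (limma adjusted p = 0.0303) and with TPM scaling (limma adjusted p = 0.0348), in a range from 0.0303 to 0.353 over 19 alternatives. IBTK passed with TPM scaling (limma adjusted p = 0.0412), in a range from 0.0412 to 0.349. TPM scaling shifts the whole distribution at 30 min: the median change of all tested transcripts averaged over genotypes was -0.39 with it and -0.19 without.

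**Figure D3:**
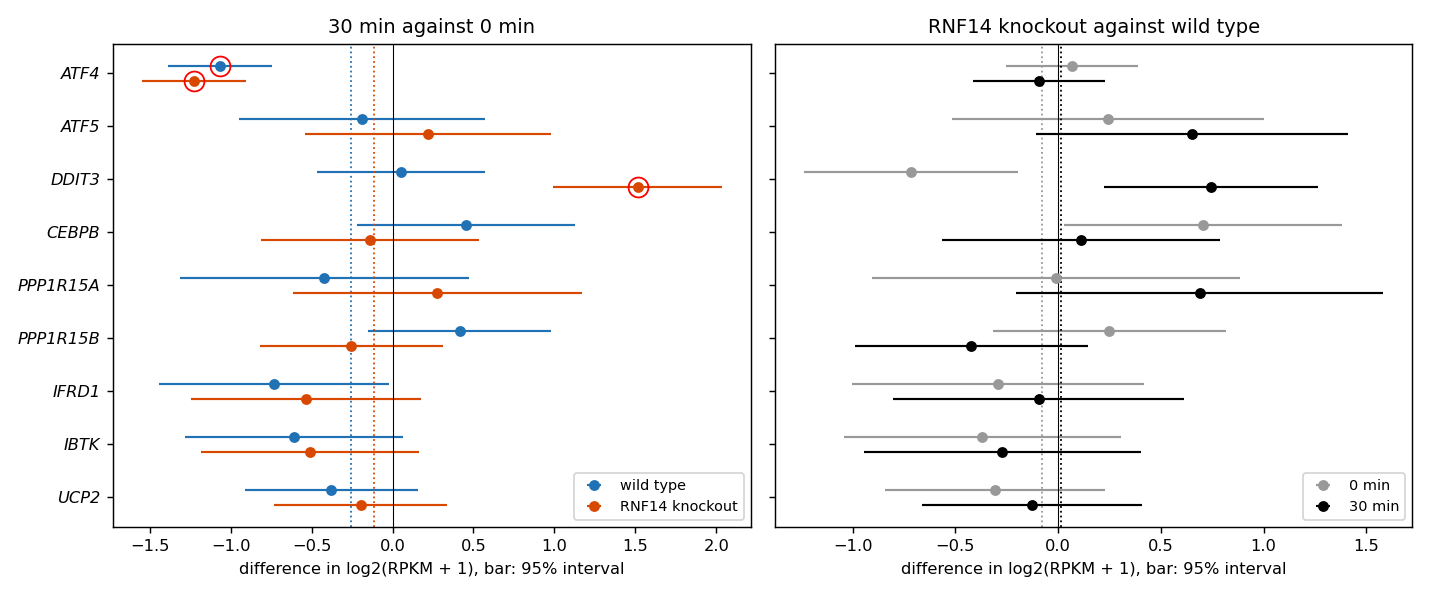
Differences in log2(RPKM + 1) of the 9 tested mRNAs with 95% intervals (bars), at left 30 min minus 0 min in each genotype and at right knockout minus wild type at each time; dotted lines mark the median of all 11920 transcripts and red rings an adjusted p under 0.05. The rings are on ATF4 in both genotypes at left and on DDIT3 in the knockout at left, and there is none at right.

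Of the 9 tested members only ATF4 and DDIT3 passed the test of recovery in the main setting, in opposite directions. In wild type 1 of 9 passed, ATF4, which fell, beside 3.23% of all 11920 transcripts passing in either direction. In the knockout 2 of 9 passed, ATF4 down and DDIT3 up, beside 1.97% of all. Averaged over genotypes 2 of 9 passed, the same 2 in the same directions, beside 7.79% of all. The median change of the 9 was -0.38 in wild type, -0.20 in the knockout and -0.07 on average, against -0.26, -0.12 and -0.19 for all tested transcripts. With each library centred on its median, which moved the median of all in wild type to 0.02, no member passed in wild type, where ATF4 had a log2 change of -0.79.

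Counts of members whose libraries did not overlap were near the share of all transcripts. ATF4 was the 1 member of 9 whose 4 libraries at 30 min all lay on 1 side of the 4 at 0 min, beside 13.2% of all transcripts in either direction. In wild type 4 of 9 had both libraries at 30 min below both at 0 min (ATF4, IBTK, IFRD1 and UCP2), beside 38.9% of all, and 2 of 9 had both above (CEBPB and PPP1R15B), beside 14.0%. In the knockout 3 of 9 had both below (ATF4, IBTK and PPP1R15B), beside 30.9%, and 1 of 9, DDIT3, had both above, beside 18.6%. PPP1R15B was the 1 member of 9 whose non-overlapping recoveries ran in opposite directions, as in 8.82% of all transcripts.

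**Figure D4:**
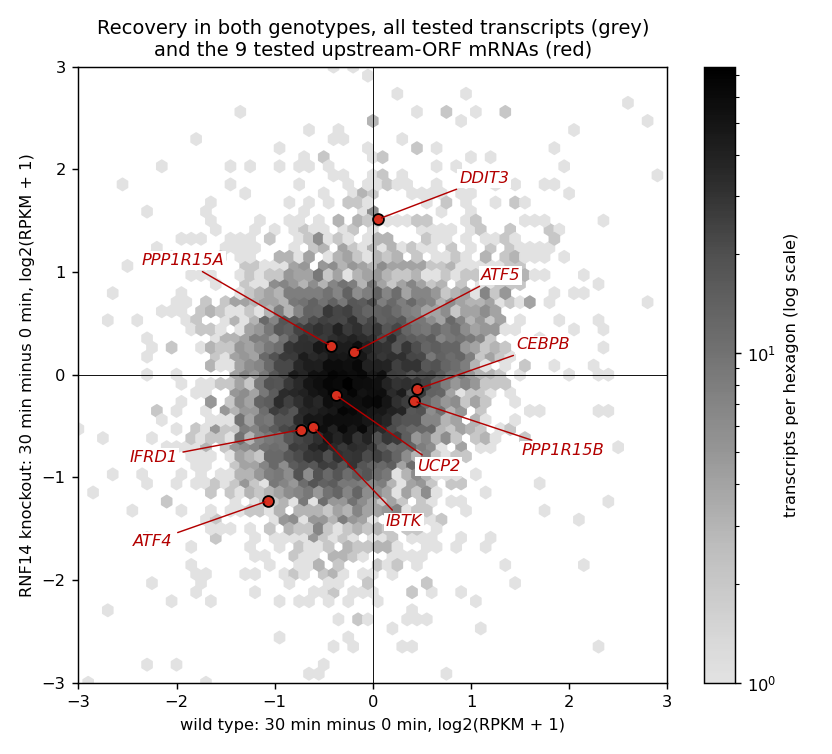
Difference between 30 min and 0 min in wild type (horizontal) and in the knockout (vertical), in log2(RPKM + 1), for all tested transcripts (grey hexagons, darker where more transcripts lie, log scale) and the 9 tested mRNAs (red); 31 transcripts lie outside the axes. ATF4 lies at the lower left, at -1.06 and -1.23, values that ranked 673rd and 376th from the lowest of 11920. DDIT3 lies at 0.05 and 1.51, and its value in the knockout ranked 140th from the highest. The other 7 lie nearer the centre of the plot.

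The next question was whether loss of RNF14 altered footprints on these mRNAs. No member differed between genotypes by the test. By limma-trend 0 of 9 passed at 0 min, beside 0.168% of all transcripts, and 0 of 9 at 30 min, beside 0.126%. By limma voom on recovered reads it was again 0 of 9 at each time, beside 6.97% of all transcripts at 0 min and 0.176% at 30 min. At an unadjusted p under 0.05 by limma-trend there were 2 of 9 members at 0 min, DDIT3 and CEBPB, beside 13.6% of all transcripts, and 1 of 9 at 30 min, DDIT3, beside 10.9%. In libraries thinned to equal depth it was 0 of 9 at each time. Of all 11890 transcripts tested there, 1427 had such a p at 0 min and 947 at 30 min. ATF4 had a log2 difference between knockout and wild type of 0.07 (95% interval -0.25 to 0.39) at 0 min and -0.09 (95% interval -0.41 to 0.23) at 30 min. These values of ATF4 changed sign under other scalings, with -0.06 at 0 min under TPM.

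DDIT3 was lower in the knockout at 0 min, by the values of all 4 libraries, and higher at 30 min. The log2 difference was -0.72 (95% interval -1.24 to -0.20, limma adjusted p = 0.239) at 0 min and 0.74 (95% interval 0.22 to 1.26, limma adjusted p = 0.284) at 30 min, and neither passed. In thinned libraries it was -0.57 (limma adjusted p = 0.680) at 0 min and 0.83 (limma adjusted p = 0.721) at 30 min. The read shares of DDIT3 stood in a ratio of knockout to wild type of 0.585 (95% interval of the counts 0.384 to 0.883) at 0 min and 1.69 (1.09 to 2.62) at 30 min. CEBPB had a log2 difference of 0.70 at 0 min (95% interval 0.03 to 1.38, limma adjusted p = 0.345) and 0.11 at 30 min. For ATF5 and PPP1R15A the differences at 30 min were 0.65 (95% interval -0.11 to 1.41) and 0.69 (95% interval -0.21 to 1.58), intervals that include both no difference and more than a doubling.

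By ranges alone, 3 of 9 members were higher in the knockout at 0 min with no overlap (ATF5, CEBPB and PPP1R15B), beside 21.5% of all transcripts, and 3 of 9 were lower (DDIT3, IBTK and UCP2), beside 29.4%. At 30 min 2 of 9 were higher (DDIT3 and PPP1R15A), beside 20.2%, and 1 of 9, PPP1R15B, was lower, beside 18.3%. The order of the genotypes without overlap was opposite at 0 and 30 min for DDIT3 and PPP1R15B, 2 of 9, beside 10.9% of all transcripts. For the difference in recovery between genotypes, 0 of 9 passed by limma-trend, beside 0.00839% of all transcripts, and 0 of 9 by limma voom, beside 1.03%. At an unadjusted p under 0.05 by limma-trend there was 1 of 9, DDIT3, beside 13.3%. In thinned libraries there was 0 of 9, beside 1267 of 11890 transcripts. For ATF4 the difference between the recoveries was -0.16 (95% interval -0.61 to 0.29, limma adjusted p = 0.752).

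Members differed in how their levels followed ATF4 over the 8 libraries. Pearson's r of log2 levels with ATF4 was 0.76 for IFRD1, 0.71 for IBTK and 0.56 for UCP2, between -0.18 and 0.01 for CEBPB, ATF5, PPP1R15B and PPP1R15A, and -0.75 for DDIT3. The 8 libraries are pairs of replicates from 4 groups, and depth moves with time, so these values are a description with no test. Among 3494 transcripts with a mean of at least 50 reads, the most like ATF4 over the 8 libraries were ENSG00000127540.12, of 753 nt (r = 0.993), and ENSG00000228474.6, of 442 nt (r = 0.993). For the first, the level was 695 RPKM ± 68.1 before and 443 ± 27.7 after recovery in wild-type cells, and 762 ± 60.4 before and 424 ± 14.9 after it in knockout cells. For the second it was 991 ± 93.6 before and 512 ± 24.9 after in wild-type cells, and 963 ± 96.9 before and 468 ± 49.0 after in knockout cells (SD, n = 2 each). Their averaged log2 changes were -0.74 and -0.99, against -1.15 for ATF4, and both transcripts are shorter than the ATF4 transcript of 2019 nt. The next by r, ENSG00000255439.6, ENSG00000188243.14 and ENSG00000183648.11, had averaged changes of -0.76, -1.49 and -1.15.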

How the data were processed

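Per the labels' protocols, lysates with cycloheximide were digested with RNase I, ribosomes were pelleted and size-selected footprints were sequenced. Trimming with cutadapt, alignment with STAR 2.7.10a and the build hg38 are named per the submitters' processing notes. Which region was counted, and how the transcript was chosen, is not stated there. Reads had been turned by the authors into the deposited RPKM values, and the other deposited column is transcript length. RPKM times length was divided by its smallest positive value in each library, which was taken as a single read. This gave whole reads for 100% of values (tolerance 0.05). Their sum over the listed transcripts is the depth used here. The column matched to replicate 1 of the knockout at 30 min has an added name ending of unknown meaning.

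Levels were log2(RPKM + 1). Differences were tested two-sided with limma-trend (version 3.58.1, in R 4.3.3) on 4 group means of 8 libraries without a replicate block, for a mean RPKM of at least 1. It was also run on simulated counts with changes only in transcripts above a floor of expected reads. That run does not cover the members read least, and its outcome is not given here. Alternatives changed the pseudocount (0.1 or 5), the filter (none, or a mean of 5), the scaling (TPM, quantiles, or centring on the median) and the model (replicate block, prior without trend, fewer groups, voom on recovered reads), or left out each library; thinning to 323946 reads was added after seeing the data. Thinning was a single random draw of reads from each library. Ratios of reads carry exact 95% Clopper-Pearson intervals. The members and lists were chosen with earlier results of these data known. All 10 members are named, called or not; transcripts like ATF4 are the highest by Pearson's r. Lists of eIF2 pathway genes and ATF4 targets, line markers and RNF14 were not analysed here, since the gene table held 0 Ensembl IDs to pair with names. Same-numbered replicates did not pair. Python 3.11.15, pandas 2.3.3, scipy 1.17.1 and matplotlib 3.10.9 were used.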

Additional observations from a re-analysis of the deposited data

Results flagged for a closer look

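PPP1R15B had both libraries at 30 min above both at 0 min in wild type and below them in the knockout. Its genotypes were in opposite order at 0 and 30 min. Recoveries without overlap ran in opposite directions in 8.82% of all 11920 tested transcripts, and genotype orders were opposite in 10.9%. For PPP1R15B the difference is given next. The difference between its recoveries, on the log2(RPKM + 1) scale, was -0.67 and did not pass (limma adjusted p = 0.443).

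Genotype orders opposite at 0 and 30 min without overlap, found in 10.9% of all 11920 tested transcripts, also occurred for DDIT3. DDIT3 was lower in the knockout than in wild type in both replicates at 0 min and higher in both at 30 min. The difference between its recoveries was 1.46 and did not pass when adjusted over all transcripts (limma adjusted p = 0.238). It rests on 40 and 46 reads in the knockout and 63 and 43 reads in wild type, at 0 and 30 min.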

How the results depend on the processing

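The number of members passing the test went from 1 in wild type to 0 with median centring and to 0 with no trend in the prior, and ranged from 0 to 1 when single libraries were left out. In the knockout it went from 2 to 0 with no trend and to 1 in thinned libraries, and ranged from 0 to 2 without single libraries. Averaged over genotypes it went from 2 to 4 with TPM, to 1 with no trend and to 1 in thinned libraries, and ranged from 1 to 3 without single libraries. Between genotypes and for the difference in recovery it was 0 in every alternative run. Of 5 member results that passed, 0 changed sign under any alternative, and of 49 that did not, 22 did. Without the single most read transcript the share of reads on the members was 0.162% and 0.101% in wild type at 0 and 30 min. In the knockout this share was 0.166% at 0 min and 0.0978% at 30 min. With the replicate block the counts were 1 in wild type, 2 in the knockout, 2 averaged over genotypes and 0 in the other 3 comparisons, as without it. Over all transcripts the block moved the averaged calls from 929 to 817. Deviations of same-numbered replicates correlated between -0.08 and 0.07. Over all alternatives the calls among all transcripts ran from 2 to 1385 in wild type, 0 to 571 in the knockout, 3 to 831 between genotypes at 0 min, 3 to 126 at 30 min, 0 to 123 for the difference in recovery and 99 to 2165 averaged. Where a library was left out, the lone sample of its group was assumed to vary like the others. The cause of these changes was not tested. Apart from ATF4 and PPP1R15B, the members had at most 78 reads in any library, which limits the differences that could be seen.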
